A study of Mus musculus with 3 samples.

Results

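The mRNAs of 5 growth factor receptor chains, Flt3, Csf1r, Csf2ra, Csf2rb and Csf2rb2, were followed among 22548 genes in dendritic cells that had migrated to the ear-draining lymph nodes of mice with MC903-treated skin. The genes were listed by name, with earlier results of these data known. MC903 is an analogue of vitamin D that inflames skin when applied to it. The mice carried the alleles SiglechiCreTg/0 ROSA26LoxP-STOP-LoxP-RFP Tnfsf4KI/+, were treated on days 0, 2 and 4, and gave their nodes on day 5. Sorted cells were B220- MHCIIhi CD11c low to int XCR1- CD326-, a gate meant to leave out Langerhans cells and cDC1, the cross-presenting conventional dendritic cells. From this gate 4 populations were taken by their reporters, each was given its own hashtag antibody, and they were mixed. The mix held 10400 BFP+RFP- cells and 5200 cells from each of the other populations, BFP+RFP+, BFP-RFP+ and BFP-RFP-.

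All 4 populations share the genotype, the treatment and the day, so no untreated animal stands beside them. RFP marks cells in which the Siglech-driven Cre had acted at any earlier time, and BFP is taken as the reporter of the Tnfsf4 knock-in allele, the locus of the costimulatory ligand OX40L. RFP therefore records past and not present Siglech expression. Cells of 1 population may come from several mice, and the number of mice is not given in the sources used here.

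FLT3, CSF1R and the GM-CSF receptor are 3 growth factor receptors of the myeloid lineage. FLT3 is a receptor tyrosine kinase that sustains dendritic cells and their precursors, and CSF1R, a kinase of the same class, sustains monocytes and macrophages. The GM-CSF receptor pairs a ligand-binding alpha chain, from Csf2ra, with a common beta chain, from Csf2rb, which signals through JAK2 and STAT5 and also serves the IL-3 and IL-5 receptors. Mice have a second beta chain, from Csf2rb2, that pairs with the IL-3 receptor alpha chain alone. Csf2rb and Csf2rb2 are close copies of each other, so reads shared between them could be split by the counting, and the values of each carry that uncertainty.

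The transcription factor PU.1, encoded by Spi1, binds purine-rich sites with a GGAA core and acts at many myeloid receptor genes. Promoter windows from RefSeq, from 250 bases before to 50 bases after the gene start on build GRCm38.p6, were used for 3 of the 5 receptors and are shown to set the dendritic cell receptor Flt3 beside 2 chains of the GM-CSF and IL-3 receptors. The windows of Csf1r and Csf2rb were not used here. A single form of such a site, the letters GAGGAA, was searched on both strands. Each is written 5′ to 3′ on the strand of its gene, and capitals mark GAGGAA or, where it lies on the other strand, TTCCTC.
Flt3, chr5:147400440-147400739, minus strand: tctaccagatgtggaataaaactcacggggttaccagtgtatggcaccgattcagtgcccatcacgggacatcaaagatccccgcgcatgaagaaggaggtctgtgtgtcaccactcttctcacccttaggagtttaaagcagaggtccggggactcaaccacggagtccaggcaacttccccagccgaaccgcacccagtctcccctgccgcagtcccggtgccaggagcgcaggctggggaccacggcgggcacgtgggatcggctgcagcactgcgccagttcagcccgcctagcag
Csf2ra, chr19:61228369-61228668, minus strand: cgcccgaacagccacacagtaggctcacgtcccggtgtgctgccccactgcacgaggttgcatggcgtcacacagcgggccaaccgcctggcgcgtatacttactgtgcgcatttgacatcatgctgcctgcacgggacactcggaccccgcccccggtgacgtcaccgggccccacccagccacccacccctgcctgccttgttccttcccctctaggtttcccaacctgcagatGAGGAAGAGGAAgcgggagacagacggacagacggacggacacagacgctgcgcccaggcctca
Csf2rb2, chr15:78305672-78305971, minus strand: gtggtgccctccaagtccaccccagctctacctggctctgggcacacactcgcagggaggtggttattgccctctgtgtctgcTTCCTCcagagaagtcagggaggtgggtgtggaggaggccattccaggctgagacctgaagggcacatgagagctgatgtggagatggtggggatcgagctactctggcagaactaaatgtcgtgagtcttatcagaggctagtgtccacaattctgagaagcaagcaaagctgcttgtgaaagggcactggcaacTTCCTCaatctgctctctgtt
Csf2ra held 2 copies that directly follow each other, Csf2rb2 held 2 copies on the other strand, and Flt3 held 0. Of 32851 promoters of the same length, 28.3% held the motif on either strand, so 2 of 3 is a description of these windows and no evidence of binding. For Flt3 the count says only that these exact letters are not in this window.

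Of 6079 barcodes, 5023 were kept, with at least 80% of hashtag UMIs from 1 hashtag, 1000 or more mRNA UMIs and no more than 10% of them mitochondrial. BFP+RFP+ had 842 of these cells and 14140272 mRNA UMIs, and BFP-RFP+ had 982 cells and 15746616 UMIs. BFP+RFP- had 2185 cells and 35590897 UMIs, and BFP-RFP- had 1014 cells and 14877282 UMIs. The median UMIs per cell ran between 13884 and 15182. Ccr7 and Fscn1, which mark migratory dendritic cells, had at least 1 UMI in 96.8% and 94.2% of the cells without a C1q UMI. Xcr1 had 11 and Cd207 had 9 UMIs in all. Among the kept barcodes, 211 were T cell-like and 99 B cell-like by at least 5 UMIs of their marker genes. Cells with at least 5 UMIs of C1qa, C1qb and C1qc together, the complement genes of macrophages, numbered 51 and are called C1q cells. From the barcodes that mixed hashtags, 286 kept barcodes (5.69%) are expected to hold 2 cells of the same population, and these were not removed.

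Levels are UMIs per 1000000 mRNA UMIs (CPM) summed over the cells of a population, with an exact 95% Poisson interval. Differences are log2 ratios, to each side of which 0.5 UMI was added, with an exact 95% interval. Each population is 1 sample from 1 capture, so no test was made, no p-value is given, and the intervals cover counting error only. A change of 1.5-fold in genes with at least 100 UMIs is used as a fixed size for counts.

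Flt3 was the steadiest of the 5 receptors. Its level was 372 CPM (362 to 382) in BFP+RFP+ cells, 372 CPM (362 to 382) in BFP-RFP+ cells, 371 CPM (365 to 378) in BFP+RFP- cells and 402 CPM (392 to 412) in BFP-RFP- cells. The highest population stood 1.08-fold above the lowest, and the 3 populations with a reporter had intervals that overlapped. BFP-RFP- cells stood above the others. The log2 ratio of BFP+RFP- over BFP-RFP- cells was -0.11 (-0.16 to -0.07), and that of BFP-RFP+ over BFP-RFP- cells was also -0.11 (-0.16 to -0.06). Without C1q cells Flt3 was 370 CPM in BFP+RFP+, 376 CPM in BFP-RFP+, 373 CPM in BFP+RFP- and 411 CPM in BFP-RFP- cells.

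Csf1r was the only receptor past 1.5-fold in the comparisons of 1 reporter at a fixed state of the other. Its level was 3.32 CPM (2.44 to 4.42) in BFP+RFP+ cells, 10.4 CPM (8.88 to 12.1) in BFP-RFP+ cells, 3.60 CPM (3.0 to 4.28) in BFP+RFP- cells and 14.3 CPM (12.5 to 16.4) in BFP-RFP- cells. Both BFP- populations were above both BFP+ populations, and the BFP+ populations overlapped. The log2 ratio of BFP+ over BFP- cells was -1.64 (-2.15 to -1.17) within RFP+ cells and -1.99 (-2.32 to -1.67) within RFP- cells. Of 10888 genes compared, 10.0% were lower by 1.5-fold or more in BFP+RFP+ than in BFP-RFP+ cells and 2.64% higher. Between BFP+RFP- and BFP-RFP- cells, 5.04% were lower and 2.30% higher. In each of these comparisons 1 of 5 receptors was lower past that size and 0 were higher.

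Csf2ra, the ligand-binding chain for GM-CSF, had 32.5 CPM (29.6 to 35.6) in BFP+RFP+ cells, 42.6 CPM (39.4 to 46.0) in BFP-RFP+ cells, 37.9 CPM (35.9 to 40.0) in BFP+RFP- cells and 43.0 CPM (39.7 to 46.4) in BFP-RFP- cells. BFP+RFP+ cells were the lowest, and the interval of their log2 ratio to BFP-RFP+ cells, -0.39 (-0.56 to -0.22), excluded 0. Within RFP- cells the BFP+ over BFP- ratio was -0.18 (-0.32 to -0.04), and without C1q cells it was -0.13 (-0.27 to 0.02).

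Csf2rb, the shared signalling chain, was ordered by both reporters. It had 158 CPM (151 to 164) in BFP+RFP+ cells, 171 CPM (165 to 178) in BFP-RFP+ cells, 198 CPM (193 to 203) in BFP+RFP- cells and 219 CPM (212 to 227) in BFP-RFP- cells. With all cells, no neighbours in that order had overlapping intervals. The log2 ratio of RFP+ over RFP- cells was -0.33 (-0.40 to -0.26) among BFP+ cells and -0.36 (-0.43 to -0.28) among BFP- cells. Without C1q cells the intervals of BFP+RFP+ (151 to 165) and BFP-RFP+ cells (164 to 177) overlapped. The BFP+ over BFP- ratio within RFP+ cells was then -0.11 (-0.20 to -0.03), beside a median of -0.09 over all genes.

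Csf2rb2, the mouse beta chain for IL-3, followed the same order. It had 42.8 CPM (39.4 to 46.3) in BFP+RFP+ cells, 50.9 CPM (47.4 to 54.5) in BFP-RFP+ cells, 55.1 CPM (52.7 to 57.6) in BFP+RFP- cells and 69.5 CPM (65.3 to 73.9) in BFP-RFP- cells. The extremes were 1.62-fold apart, and only the 2 middle populations overlapped. The log2 ratio of RFP+ over RFP- cells was -0.36 (-0.50 to -0.23) among BFP+ cells and -0.45 (-0.59 to -0.32) among BFP- cells. The BFP+ over BFP- ratio was -0.25 (-0.40 to -0.10) within RFP+ cells and -0.33 (-0.44 to -0.22) within RFP- cells.

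Between RFP+ and RFP- cells, 0 of 5 receptors passed 1.5-fold in either stratum. Among BFP+ cells 4.32% of genes were higher and 6.41% lower by that size, and among BFP- cells 5.54% were higher and 3.66% lower. Among all genes compared, 9.5% had a lower RFP+ over RFP- ratio than Csf2rb among BFP- cells, and 6.25% a lower one than Csf2rb2. Without C1q cells 4.25% were higher and 6.23% lower among BFP+ cells, and 5.90% higher and 3.35% lower among BFP- cells, again with 0 of 5 receptors past that size. The median of all genes was -0.10 to -0.01 in the 4 comparisons of all cells.

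**Figure D1:**
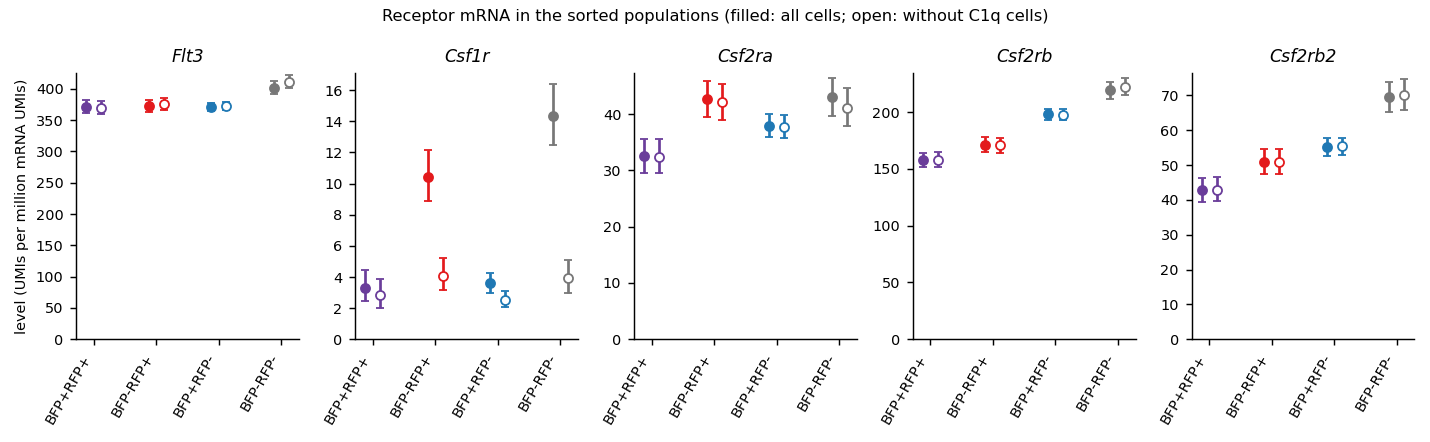
Levels of the 5 receptors in the sorted populations, in UMIs per 1000000 mRNA UMIs, with exact 95% Poisson intervals; filled points are all cells and open points the cells without C1q cells. Csf1r in the BFP- populations, 10.4 and 14.3 CPM in all cells, drops to 4.08 and 3.94 CPM without C1q cells, while the filled and open points of the other receptors nearly coincide.

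**Figure D2:**
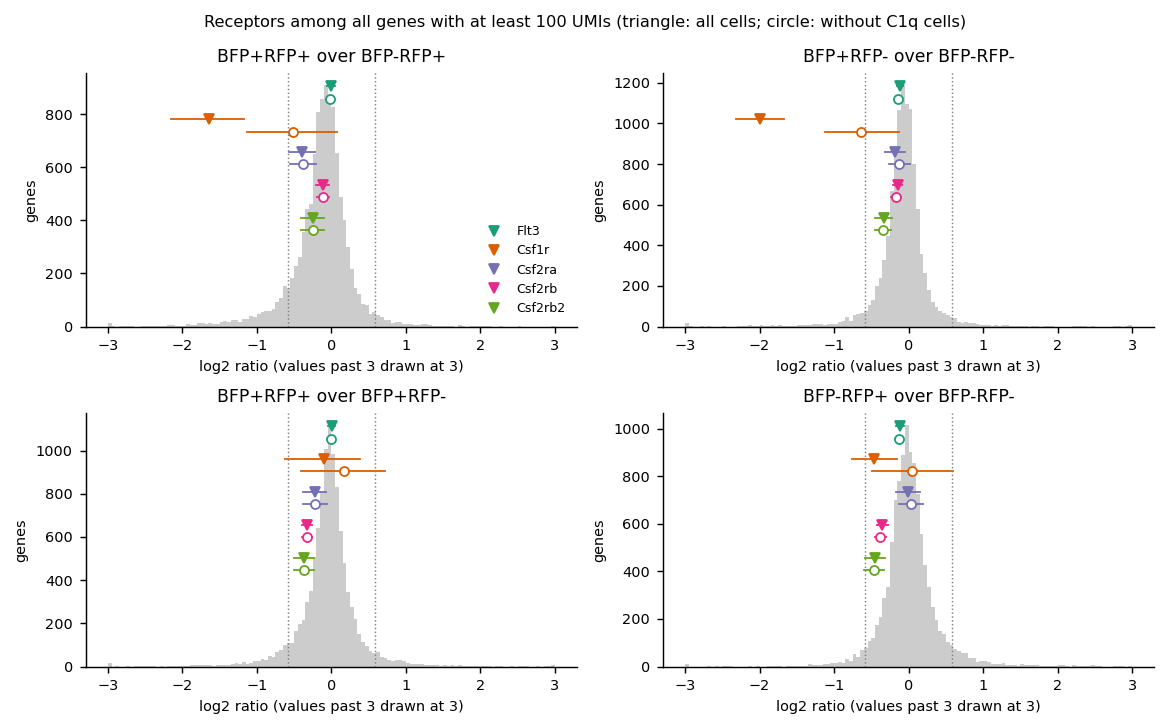
Log2 ratios of all genes with at least 100 UMIs (grey, number of genes per bin) in each comparison, with the 5 receptors as triangles for all cells and circles without C1q cells, their exact 95% intervals as lines, and 1.5-fold as dotted lines. Csf1r in all cells lies left of the dotted line in both BFP comparisons, its circle within RFP- cells, at -0.63, does too, and no other receptor lies past it.

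The C1q cells were 1.02% of the cells and held 1.37% of the mRNA UMIs, but 54.7% of the Csf1r UMIs, 302 of 552. They numbered 4 of 842 BFP+RFP+, 15 of 982 BFP-RFP+, 11 of 2185 BFP+RFP- and 21 of 1014 BFP-RFP- cells. Of Csf1r UMIs they held 14.9% in BFP+RFP+, 61.6% in BFP-RFP+, 29.7% in BFP+RFP- and 73.2% in BFP-RFP- cells. For the other 4 receptors the share over all populations was 0.67% to 2.8%.

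Without C1q cells, Csf1r had 2.85 CPM (2.04 to 3.89) in BFP+RFP+ cells, 4.08 CPM (3.14 to 5.22) in BFP-RFP+ cells, 2.55 CPM (2.05 to 3.13) in BFP+RFP- cells and 3.94 CPM (2.98 to 5.10) in BFP-RFP- cells. Every neighbour in the order then overlapped. The BFP+ over BFP- log2 ratio became -0.51 (-1.13 to 0.08) within RFP+ cells, which includes 0, and -0.63 (-1.12 to -0.12) within RFP- cells. Without C1q cells 8.90% of all genes were lower by 1.5-fold or more within RFP+ cells and 3.71% within RFP- cells, so 0 and 1 of 5 receptors were lower past it. The percents higher were 2.58% and 2.37%, and 0 receptors were higher in either stratum. Markers of monocytes and macrophages had the same direction as Csf1r, and their part in it was not tested. Of 14 such genes compared, 10 were lower by 1.5-fold or more in BFP+RFP+ than in BFP-RFP+ cells, and all 14 were lower in BFP+RFP- than in BFP-RFP- cells. Over all genes these shares were 10.0% and 5.04%. Their summed level was 278 CPM in BFP+RFP+, 687 CPM in BFP-RFP+, 197 CPM in BFP+RFP- and 706 CPM in BFP-RFP- cells, and none of the 15 listed was at 0 in all populations. Without C1q cells the sums were 230, 429, 125 and 211 CPM in the same order.

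Against the other cells, C1q cells were higher in Csf1r and lower in Flt3. Csf1r had 275 CPM (245 to 308) in C1q cells and 3.15 CPM (2.78 to 3.57) in the others, a log2 ratio of 6.44 (6.20 to 6.69). Flt3 had 186 CPM (161 to 213) in C1q cells and 380 CPM (376 to 384) in the others, a log2 ratio of -1.03 (-1.24 to -0.83). Csf2ra was higher in C1q cells, at 80.1 CPM (64.2 to 98.6) against 38.2 CPM (36.9 to 39.6). Csf2rb had 153 CPM in C1q cells and 190 CPM in the others, a log2 ratio of -0.31 (-0.54 to -0.09). Csf2rb2 had 39.1 CPM in C1q cells and 55.0 CPM in the others, a ratio of -0.48 (-0.96 to -0.06). In this comparison 24.1% of genes were higher and 21.4% lower by 1.5-fold or more, so 2 receptors higher and 1 lower is to be read against that background.

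Dendritic cell genes did not all go one way in the C1q cells. Flt3 there was 566 CPM in 4 BFP+RFP+, 186 CPM in 15 BFP-RFP+, 202 CPM in 11 BFP+RFP- and 61.8 CPM in 21 BFP-RFP- cells. The sum of the 4 BFP+RFP+ cells was above the 370 CPM of the other BFP+RFP+ cells. Only 2 of the 4 had Flt3 UMIs, and these 2 held 68 of the 204 Flt3 UMIs of all C1q cells. After each cell was thinned to 5000 UMIs, Flt3 was found in 25.6% (13.5 to 41.2) of C1q cells and in 19.4% (14.0 to 25.7) of T cell-like barcodes. These intervals overlap. Flt3 UMIs were uneven over the T cell-like barcodes, with up to 6 in 1 barcode and a variance over the mean of 2.33. They are therefore no even background, and whether some of these barcodes hold 2 cells was not tested. Ccr7, the homing receptor of migratory dendritic cells, had 752 CPM in C1q cells and 1433 CPM in the others. Zbtb46, a transcription factor of conventional dendritic cells, had 105 CPM in C1q cells and 214 CPM in the others. H2-Aa, a chain of MHC class II, was higher, at 8111 CPM in C1q cells and 5192 CPM in the others, a log2 ratio of 0.64 (0.61 to 0.67). Of the 51 cells, 25 had Csf1r UMIs without Flt3 UMIs, 11 had both, 8 had Flt3 alone and 7 had neither. Whether cells with both are single cells or pairs in 1 droplet was not tested.

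**Figure D3:**
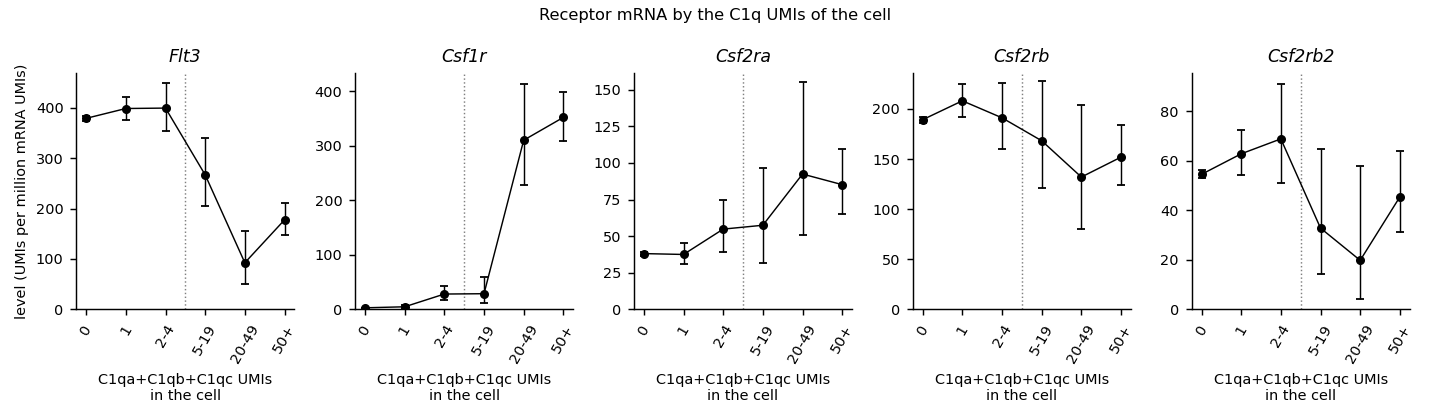
Levels of the 5 receptors, in UMIs per 1000000 mRNA UMIs with exact 95% Poisson intervals, by the number of C1q UMIs in the cell, low to high; the dotted line marks the 5 UMIs from which a cell is called a C1q cell. Csf1r is 28.1 CPM at 2 to 4 UMIs, 28.7 CPM at 5 to 19 and 352 CPM at 50 or more, and Flt3 is 399, 267 and 178 CPM in the same bins.

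Both genes differed with the number of C1q UMIs in the cell. Csf1r was 2.86 CPM in the 4782 cells with 0 C1q UMIs, 4.73 CPM in 149 cells with 1, 28.1 CPM in 41 cells with 2 to 4, and 28.7 CPM in 17 cells with 5 to 19. It was 310 CPM in 9 cells with 20 to 49 and 352 CPM in 25 cells with 50 or more, and all 25 of the last had a Csf1r UMI. Flt3 was 379, 398 and 399 CPM up to 4 C1q UMIs, then 267 CPM, 92.4 CPM and 178 CPM in the 3 bins of C1q cells. Only 2 of 9 and 8 of 25 cells of the upper bins had a Flt3 UMI. The limits of these bins were set with the values already known.

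The Csf1r UMIs outside the C1q cells were held by few cells. They numbered 250, in 116 of 4972 cells, and 47 cells with 2 or more held 181 of them. A Csf1r UMI was found in 11 cells of BFP+RFP+, 33 of BFP-RFP+, 46 of BFP+RFP- and 26 of BFP-RFP-. In BFP+RFP+ cells 6 cells with 2 or more held 35 of 40 UMIs. The 47 cells had a median depth of 23280 UMIs, against 14469 UMIs in the 4856 cells without Csf1r. They had 2090 CPM of Lyz2, the lysozyme of monocytes and macrophages, against 44.0 CPM in cells without Csf1r. Their Ccr2, the chemokine receptor of monocytes, was 239 CPM against 1.30 CPM. Their Flt3 was 221 CPM (196 to 249) against 383 CPM (379 to 388), and their Ccr7 819 CPM against 1444 CPM. Csf2ra was 84.3 CPM (69.1 to 102) against 37.4 CPM (36.0 to 38.8), while Csf2rb and Csf2rb2 were 225 and 49.6 CPM against 189 and 54.8 CPM. In these 47 cells, as in the C1q cells, Flt3 was lower and Csf2ra higher. They were picked by Csf1r itself, with the values known.

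The same cells carried antibody tags against 4 surface proteins, CD11b, CD8a, CD172a and CD301b. Cells outside the C1q set were cut into 4 bins of about equal size by each tag's UMIs over all populations, and the top bin was set against the bottom bin within each population. The mean of the 4 log2 ratios is given, for some receptors with its lowest and highest population. Between these bins each tag's own mRNA was higher in the top: Cd8a, Sirpa and Mgl2 had mean log2 ratios of 5.56, 2.41 and 3.09 for CD8a, CD172a and CD301b, and Itgam had 0 UMIs in the bottom CD11b bin of each population. Over the 4972 cells of the 1 capture, the Spearman correlation of a tag with its own mRNA was 0.43 for CD8a and 0.40 for CD172a, but 0.13 for CD11b and 0.10 for CD301b. With the cell's mRNA UMIs it was 0.35, 0.39, 0.32 and 0.28 in that order, so all 4 tags also went with depth. Itgam had 13, 12, 42 and 21 UMIs in top CD11b bins of 109, 191, 632 and 317 cells, so most of these cells tie at 0. Its correlation can therefore not be ranked against that with depth, and for Mgl2 such a ranking was not tested. Median depth was 17194 UMIs per cell in the top and 11775 in the bottom CD11b bin. T or B cell-like barcodes made up 2.80% of the top and 16.1% of the bottom CD11b bin.

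The CD11b tag, an integrin chain of myeloid cells, went with Csf1r, and less steeply with both GM-CSF receptor chains and Csf2rb2. Flt3 did not follow it in these cells, but was lower in the top bin once T and B cell-like barcodes were left out. The mean log2 ratio of the top over the bottom bin was 4.36 for Csf1r, 0.58 for Csf2rb, 0.50 for Csf2rb2, 0.45 for Csf2ra and -0.00 for Flt3. Of all genes 6.90% were higher by 1.5-fold or more and 11.2% lower, and 1 of 5 receptors, Csf1r, was higher, with Csf2rb just under that size.

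Csf1r in the top CD11b bin was 15.1 CPM in BFP+RFP+, 11.1 CPM in BFP-RFP+, 5.97 CPM in BFP+RFP- and 7.24 CPM in BFP-RFP- cells. In the bottom bin it had 1, 2, 4 and 0 UMIs in the same order. In BFP-RFP- cells, with 38 and 0 UMIs, it was at least 4.91-fold higher, with 3 UMIs as the floor of the bottom bin. With that bound the mean log2 ratio is 3.71. The top bin held 196 of the 250 Csf1r UMIs, or 78.4%. Inside that bin the BFP+ over BFP- ratio was 0.44 (-0.22 to 1.10) within RFP+ cells and -0.29 (-0.86 to 0.33) within RFP- cells, and both intervals include 0. The RFP+ over RFP- ratio there was 1.35 (0.73 to 1.92) among BFP+ cells and 0.62 (-0.04 to 1.28) among BFP- cells.

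Csf2rb had 194 CPM in the top against 149 CPM in the bottom CD11b bin of BFP+RFP+ cells, and 209 against 141 CPM in BFP-RFP+ cells. It had 249 against 151 CPM in BFP+RFP- cells and 266 against 169 CPM in BFP-RFP- cells. Its ratio was above 0 in 4 of 4 populations, from 0.38 to 0.72, and each interval excluded 0. Csf2rb2 ratios ran from 0.14 in BFP-RFP+ to 0.83 in BFP+RFP- cells, and 3 of 4 intervals excluded 0. Csf2ra ratios ran from 0.15 in BFP+RFP+ to 0.75 in BFP+RFP- cells, again with 3 of 4 intervals above 0. Flt3 ratios lay between -0.04 and 0.03, and all 4 intervals included 0. With T and B cell-like barcodes also left out, the mean ratios were 0.43 for Csf2rb, 0.39 for Csf2rb2, 0.31 for Csf2ra and -0.16 for Flt3. The intervals then lay above 0 in 4 of 4 populations for Csf2rb and 3 of 4 for Csf2rb2, but for Csf2ra in 1 of 4, BFP+RFP- cells. Flt3 was then lower in the top bin of all 4 populations, from -0.27 to -0.09, and only the interval of BFP+RFP+ cells (-0.21 to 0.03) included 0.

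**Figure D4:**
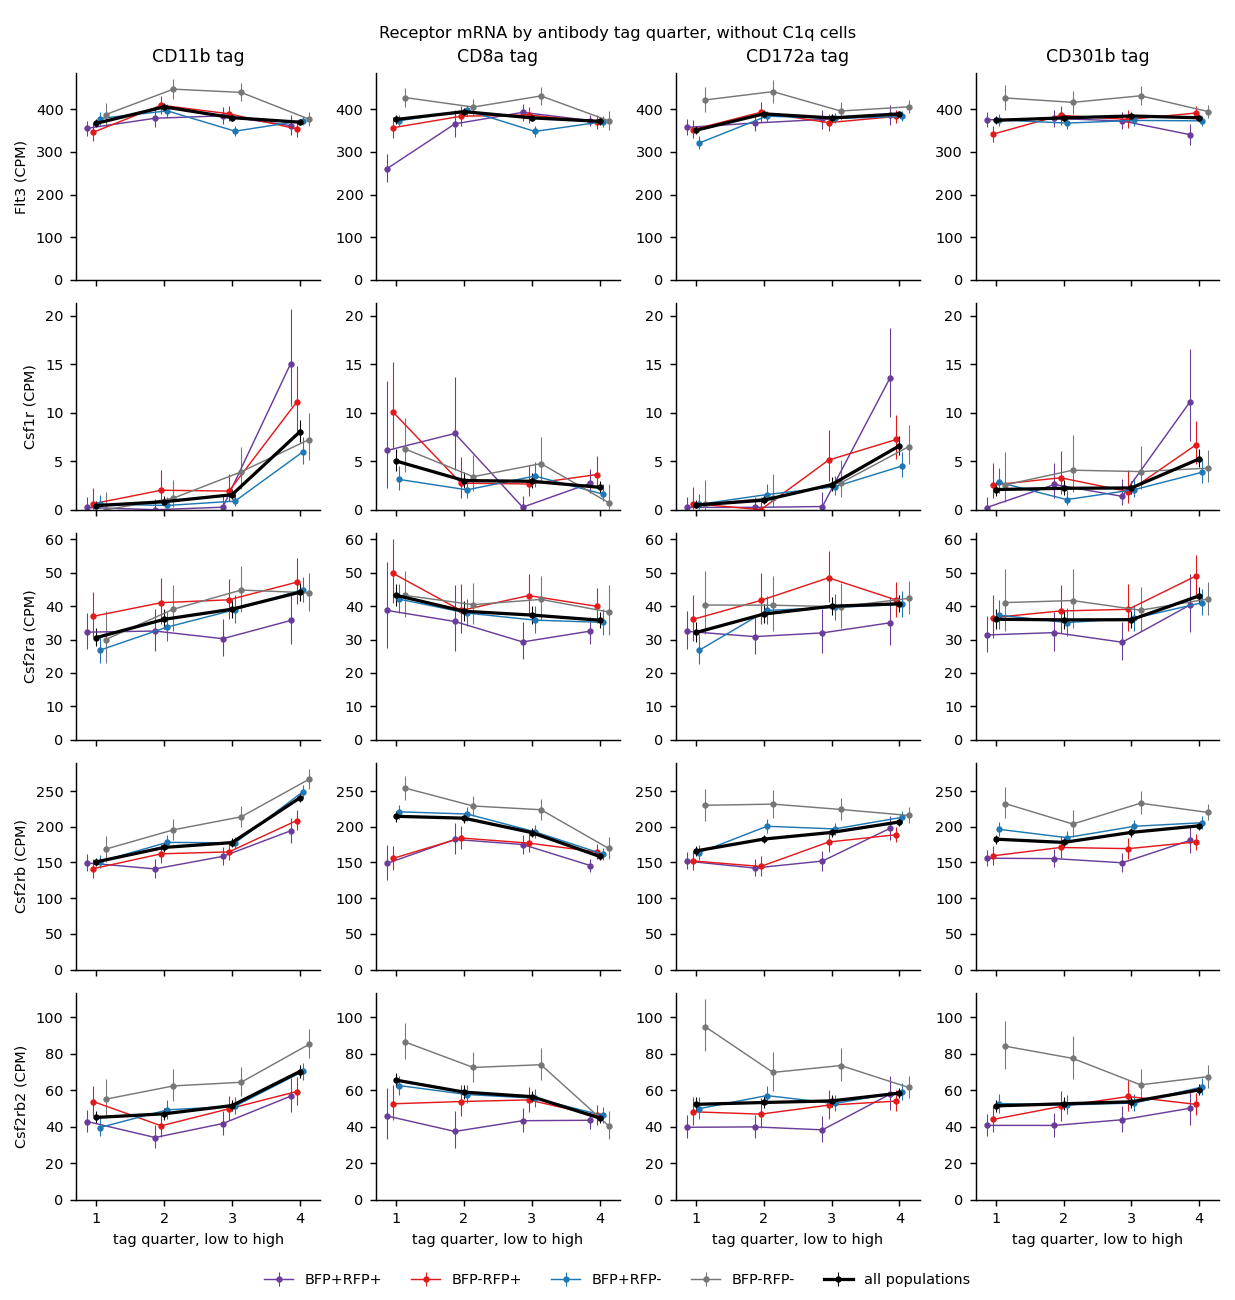
Levels of the 5 receptors, in UMIs per 1000000 mRNA UMIs with exact 95% Poisson intervals, over bins of each antibody tag from low to high, without C1q cells; colours are the sorted populations and black is all populations together. Csf2rb over all populations is 151, 171, 178 and 240 CPM across the CD11b bins, Csf1r is 0.42, 0.82, 1.54 and 8.04 CPM, and Flt3 stays between 367 and 406 CPM.

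The CD8a tag ran the other way for most receptors. The mean log2 ratio of the top over the bottom bin was -1.62 for Csf1r, -0.45 for Csf2rb2, -0.26 for Csf2ra, -0.25 for Csf2rb and 0.09 for Flt3, while 4.88% of genes were higher and 11.5% lower by 1.5-fold or more. Of 5 receptors, 1 was lower by that size. Csf2rb differed in the RFP- populations. It had 162 CPM in the top against 221 CPM in the bottom CD8a bin of BFP+RFP- cells, and 170 against 254 CPM in BFP-RFP- cells. It had 146 against 149 CPM in BFP+RFP+ cells and 165 against 156 CPM in BFP-RFP+ cells, and both of those intervals include 0. Csf2rb2 had 40.4 CPM in the top and 86.4 CPM in the bottom bin of BFP-RFP- cells, a ratio of -1.09 (-1.42 to -0.78). Flt3 had 374 CPM in the top and 261 CPM in the bottom bin of BFP+RFP+ cells, a ratio of 0.52 (0.33 to 0.71). In BFP-RFP- cells it had 373 against 427 CPM, a ratio of -0.20 (-0.31 to -0.08). T or B cell-like barcodes were 23 of 99 cells in that bottom bin of BFP+RFP+ cells and 16 of 298 in that of BFP-RFP- cells. Without them the Flt3 ratios were 0.30 (0.12 to 0.48) and -0.15 (-0.27 to -0.04).

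The CD172a tag, the SIRPA protein of type 2 dendritic cells and macrophages, went with Csf1r, whose mean log2 ratio was 3.57. For the other receptors it was 0.08 to 0.25, while 6.73% of genes were higher and 15.5% lower by 1.5-fold or more. Of 5 receptors, 1 was higher by that size. T or B cell-like barcodes made up 2.95% of the top and 18.6% of the bottom CD172a bin. Without them the mean ratios were -0.08 for Flt3, -0.12 for Csf2rb2 and 0.09 for Csf2ra. Csf2rb then had 0.30 (0.13 to 0.46) in BFP+RFP+ and -0.34 (-0.49 to -0.18) in BFP-RFP- cells. Csf2rb2 split the populations. In the bottom CD172a bin it had 39.7 CPM in BFP+RFP+, 48.2 CPM in BFP-RFP+, 49.9 CPM in BFP+RFP- and 94.9 CPM in BFP-RFP- cells. In the top bin the 4 populations were close, from 54.0 to 61.5 CPM. The top over bottom ratio was 0.55 (0.22 to 0.87) in BFP+RFP+ cells and -0.63 (-0.88 to -0.36) in BFP-RFP- cells. In the bottom bin the BFP+ over BFP- ratio of Csf2rb2 within RFP- cells was -0.93 (-1.21 to -0.64), and the RFP+ over RFP- ratio among BFP- cells was -0.98 (-1.30 to -0.66).

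The CD301b tag, the lectin of a skin dendritic cell subset, went with Csf1r less evenly. Csf1r had a mean log2 ratio of 1.86, ranging from 0.43 to 5.06, with 2 of 4 intervals above 0, and the other receptors lay between -0.02 and 0.24. Of all genes 3.89% were higher and 11.3% lower by 1.5-fold or more, and 1 of 5 receptors was higher. In BFP+RFP+ cells Csf1r had 24 UMIs in the top against 1 UMI in the bottom bin. T or B cell-like barcodes made up 2.83% of the top and 11.4% of the bottom CD301b bin.

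The populations differ in their tags. The top CD11b bin took 13.0% of BFP+RFP+, 19.8% of BFP-RFP+, 29.1% of BFP+RFP- and 31.9% of BFP-RFP- cells. The top CD8a bin took 45.6%, 29.0%, 19.8% and 15.3% in the same order. The RFP difference of the beta chains was therefore read again inside the bins of both tags. The mean over the 4 CD11b bins of the RFP+ over RFP- log2 ratio of Csf2rb was -0.22 among BFP+ cells and -0.31 among BFP- cells, against -0.32 and -0.38 without the bins. For Csf2rb2 it was -0.25 and -0.39, against -0.36 and -0.46. Over the 4 CD8a bins the means were -0.28 and -0.35 for Csf2rb and -0.37 and -0.35 for Csf2rb2. The top CD8a bin differed from the other 3 for Csf2rb2, and for Csf2rb among BFP- cells. There the RFP+ over RFP- ratio was -0.15 (-0.27 to -0.04) among BFP+ and -0.04 (-0.20 to 0.12) among BFP- cells for Csf2rb, and -0.08 (-0.30 to 0.13) and 0.19 (-0.13 to 0.52) for Csf2rb2. In the other 3 CD8a bins all 12 intervals of the 2 beta chains lay below 0. Csf2rb in BFP+RFP+ against BFP+RFP- cells was alike in the top CD8a bin, at 146 against 162 CPM, and the bin below it, at 175 against 193 CPM.

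Inside the CD11b bins the beta chains were lower in RFP+ cells in 13 of 16 bins with an interval below 0, and the other 3 were in the bottom bin. In the top bin Csf2rb had 194 CPM in BFP+RFP+ and 249 CPM in BFP+RFP- cells, and 209 CPM in BFP-RFP+ and 266 CPM in BFP-RFP- cells. In the bottom bin it had 149 CPM in BFP+RFP+ and 151 CPM in BFP+RFP- cells, a ratio of -0.02 (-0.16 to 0.13), and 141 CPM in BFP-RFP+ and 169 CPM in BFP-RFP- cells, a ratio of -0.26 (-0.46 to -0.05). Csf2rb2 in the bottom bin had ratios of 0.12 (-0.16 to 0.39) among BFP+ cells and -0.04 (-0.39 to 0.32) among BFP- cells, and in the other 3 bins all 6 intervals lay below 0. The BFP difference of Csf2rb2 within RFP- cells was -0.36 as a mean over CD11b bins, against -0.34 without them.

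**Figure D5:**
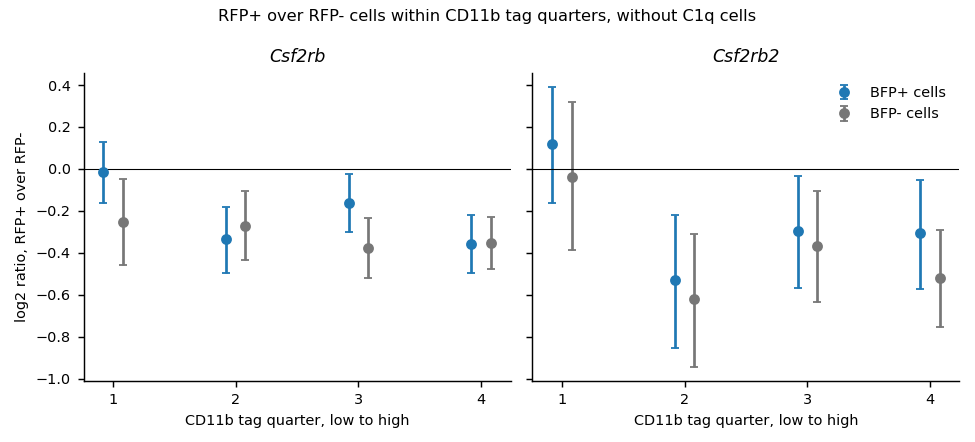
Log2 ratio of RFP+ over RFP- cells, with exact 95% intervals, for Csf2rb and Csf2rb2 inside each CD11b tag bin, without C1q cells; blue is BFP+ cells and grey BFP- cells. The ratios lie below 0 outside the bottom bin, from -0.62 to -0.16.

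Shares of cells with a UMI were read after thinning each cell to 5000 UMIs, which left out 369 of 4972 shallower cells (54, 81, 150 and 84 by population). Flt3 was found in 76.1% (73.0 to 79.1) of BFP+RFP+, 74.9% (72.0 to 77.8) of BFP-RFP+, 76.5% (74.6 to 78.3) of BFP+RFP- and 77.2% (74.4 to 79.9) of BFP-RFP- cells. It was found in 19.4% of T cell-like barcodes, at a median of 9382 UMIs against 14569 UMIs before thinning. T cells should lack Flt3, but the highest of these barcodes held 6 UMIs of it, so they are no even background. Csf2rb was found in 48.9% (45.3 to 52.4), 50.9% (47.6 to 54.2), 55.9% (53.7 to 58.1) and 58.0% (54.7 to 61.2) of cells in the same order, against 18.3% of T cell-like barcodes. Csf2rb2 was found in 17.3%, 19.2%, 23.7% and 28.2%, against 4.71%, and Csf2ra in 14.5%, 17.2%, 15.9% and 17.3%, against 6.28%. The beta chains thus differed between populations in the share of cells as well as in the summed level.

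Csf1r in thinned cells without C1q was found in 0.51% (0.14 to 1.30) of BFP+RFP+, 1.35% (0.70 to 2.35) of BFP-RFP+, 0.54% (0.27 to 0.97) of BFP+RFP- and 1.54% (0.84 to 2.57) of BFP-RFP- cells. T cell-like barcodes had it in 1 of 191, or 0.52% (0.01 to 2.88), and that 1 barcode held 3 UMIs. It is therefore no measure of an even background, and whether these shares differ from one was not tested. C1q cells had it in 67.4% (51.5 to 80.9). Without thinning, Flt3 was found in 88.7%, Csf2rb2 in 45.7%, Csf2ra in 39.2% and Csf1r in 2.33% of the 4972 cells.

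In the same thinned cells the beta chains were higher where Flt3 was found. Csf2rb had 167 CPM (156 to 178) in cells with 0 Flt3 UMIs, 185 CPM (174 to 197) with 1 and 208 CPM (200 to 217) with 2 or more. Csf2rb2 had 48.0, 58.4 and 61.6 CPM, and Csf2ra 35.3, 38.7 and 36.8 CPM with intervals that overlap. T and B cell-like barcodes were among these cells, and their part in this was not tested. The 2 beta chains were found together: Csf2rb2 had 38.3 CPM (34.6 to 42.2) in cells with 0 Csf2rb UMIs, 59.7 CPM (54.1 to 65.8) with 1 and 91.4 CPM (83.6 to 99.7) with 2 or more. The part of reads shared between the 2 copies in this was not tested. The variance of UMIs per thinned cell over the mean was 1.63 for Flt3, 1.56 for Csf2rb, 1.27 for Csf2rb2 and 1.09 for Csf2ra, where 1 is pure counting error.

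The genes with the most similar patterns were found over 49 groups of cells, defined by population and by high or low for each of the 4 tags, without C1q cells. Points share the capture and differ in depth, and the correlations are descriptions with no test. Slc7a11, a cystine transporter, was nearest to Csf2rb (Pearson r = 0.87), followed by Psap at 0.83 and Cstb at 0.82. Csf2rb2 was nearest to Arl5a at 0.76, it had 0.75 with Irf1, and it had 0.73 with Csf2rb. Csf2ra was nearest to Wdr1 at 0.70, and it had 0.62 with Spi1. Flt3 was nearest to Cep350 at 0.69, and with the other receptors it had -0.26 to 0.29. Csf1r was nearest to Rnf149 at 0.72, over a range of 0 to 23.3 CPM.

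The ligands of these receptors were scarce. Csf2, which encodes GM-CSF, had 1 UMI, and Il3 and Il5 had 0 among 80355067 mRNA UMIs, which allows up to 3 UMIs in all. Of the 6 ligand genes, 2 had at least 100 UMIs. Csf1, a ligand of CSF1R, had 1.84 CPM in BFP+RFP+, 3.11 CPM in BFP-RFP+, 4.58 CPM in BFP+RFP- and 5.18 CPM in BFP-RFP- cells, and its mean CD11b log2 ratio was 1.60. Flt3l, the ligand of FLT3, had 2.97, 2.67, 3.65 and 3.02 CPM in the same order. Il34, the other ligand of CSF1R, had 82 UMIs in all. Il3ra, the alpha chain that pairs with the Csf2rb2 product, had 33.9, 32.2, 34.5 and 34.4 CPM in that order and so did not follow its beta chain. Of 8 partner and sister receptors 4 were compared. The only one past 1.5-fold was Kit, the stem cell factor receptor, with 13.1, 21.3, 9.61 and 12.4 CPM in that order. Over all genes 10.0% were lower by that size in BFP+RFP+ than in BFP-RFP+ cells, and 5.54% higher in BFP-RFP+ than in BFP-RFP- cells.

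The signalling genes below the receptors were near even between populations. Of 22, 0 were higher and 3 lower by 1.5-fold or more in BFP+RFP+ than in BFP-RFP+ cells, and 0 and 1 in BFP+RFP- against BFP-RFP- cells, beside 10.0% and 5.04% of all genes lower. Between RFP+ and RFP- cells 0 were higher and 1 lower among BFP+ cells, and 1 was higher and 1 lower among BFP- cells, where 6.41% and 3.66% of all genes were lower and 4.32% and 5.54% higher. Jak2, the kinase bound to the beta chain, had 658 CPM in BFP+RFP+, 715 CPM in BFP-RFP+, 668 CPM in BFP+RFP- and 759 CPM in BFP-RFP- cells. Stat5a and Stat5b, the transcription factors below it, had log2 ratios between -0.36 and 0.27 in the 4 comparisons.

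Genes that respond to GM-CSF and STAT5 were not shifted one way between populations. Of 15, 2 were higher and 3 lower by 1.5-fold or more in RFP+ than in RFP- cells among BFP+ cells, and 2 were higher and 2 lower among BFP- cells. Over all genes 4.32% were higher and 6.41% lower among BFP+ cells, and 5.54% and 3.66% among BFP- cells. The medians of the 15 were 0.11 in both. Between BFP+ and BFP- cells 0 were higher and 2 lower in each stratum, and without C1q cells 0 were lower within RFP- cells. Over all genes 10.0% were lower within RFP+ cells and 5.04% within RFP- cells, and 3.71% within RFP- cells without C1q cells. With the CD11b tag, without C1q cells, 8 were higher and 1 lower, at a median of 0.65 against -0.09 over all genes, of which 6.90% were higher and 11.2% lower. Among them Itgax, the CD11c integrin chain, had a mean log2 ratio of 2.74, Cd1d1, a lipid-presenting molecule, 1.48, Ccl17, a chemokine, 1.47, and Cish, a feedback inhibitor induced by STAT5, 0.87. Cish had 40.5 CPM in BFP-RFP+ and 25.4 CPM in BFP-RFP- cells, while Csf2rb had 171 CPM in BFP-RFP+ and 219 CPM in BFP-RFP- cells.

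Of 14 inhibitors and feedback genes of the receptors, 2 were higher and 0 lower by 1.5-fold or more in BFP-RFP+ than in BFP-RFP- cells, and these were Cish and Socs3, at log2 ratios of 0.67 and 0.66. Among BFP+ cells Socs3, a feedback inhibitor of cytokine receptors, was higher at 0.63 and Sh2b3, the adaptor LNK that restrains JAK2, lower at -0.68. Neither BFP comparison had 1 past that size. Of 19 transcription factors of dendritic cell lineages, 1 was higher and 2 lower in RFP+ cells among BFP+ cells, and 1 and 1 among BFP- cells. For both lists the shares over all genes were 4.32% higher and 6.41% lower among BFP+ cells, and 5.54% higher and 3.66% lower among BFP- cells. Spi1 had 205 CPM in BFP+RFP+, 263 CPM in BFP-RFP+, 246 CPM in BFP+RFP- and 285 CPM in BFP-RFP- cells, and a mean CD11b ratio of 0.65.

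Genes linked to CSF1R in macrophages followed Csf1r. Of 15 compared, 11 were lower by 1.5-fold or more in BFP+RFP+ than in BFP-RFP+ cells, and 0 were higher. Within RFP- cells 13 were lower in BFP+ than in BFP- cells, and 0 were higher. Over all genes 10.0% were lower and 2.64% higher within RFP+ cells, and 5.04% and 2.30% within RFP- cells. Lyz2 had 115 CPM in BFP+RFP+, 323 CPM in BFP-RFP+, 74.3 CPM in BFP+RFP- and 348 CPM in BFP-RFP- cells. Without C1q cells 12 were compared, and 6 and 4 were lower, beside 8.90% and 3.71% of all genes. With the CD11b tag 10 of those 12 were higher and 0 lower, at a median of 1.18, and with the CD8a tag 9 were lower and 0 higher. Over all genes 6.90% were higher and 11.2% lower with the CD11b tag, and 4.88% and 11.5% with the CD8a tag.

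Markers of other cells that the gate could hold were counted in the same way. Over all genes 10.0% were lower and 2.64% higher by 1.5-fold or more in BFP+ cells within RFP+ cells, and 5.04% and 2.30% within RFP- cells. In RFP+ cells 6.41% were lower and 4.32% higher among BFP+ cells, and 3.66% and 5.54% among BFP- cells. Counts of 1 or 2 in the lists below are to be read against these shares. Markers of CD11b-positive cDC2, the type 2 conventional dendritic cells, were lower in BFP+ than in BFP- cells for 8 of 10 genes within RFP+ cells and 7 of 10 within RFP- cells, with 0 higher. Their summed level did not follow these counts, at 3346 CPM in BFP+RFP+, 3123 CPM in BFP-RFP+, 3351 CPM in BFP+RFP- and 2942 CPM in BFP-RFP- cells. Without C1q cells 0 of 9 were higher and 5 lower in each stratum, beside 8.90% of all genes lower within RFP+ cells and 3.71% within RFP- cells. Between RFP+ and RFP- cells, 2 were higher and 2 lower among BFP+ cells, and 4 were higher and 1 lower among BFP- cells. For T and NK cells 0 of 11 markers were higher and 3 lower in RFP+ cells among BFP+ cells, and 6 were higher and 0 lower among BFP- cells, while the beta chains were lower in both. In BFP+ cells 0 were higher and 6 lower within RFP+ cells, and 3 were higher and 0 lower within RFP- cells. For B cells 0 of 9 were higher and 2 lower among BFP+ cells, and 0 were higher and 4 lower among BFP- cells. In BFP+ cells 7 were higher and 0 lower within RFP+ cells, and 4 were higher and 1 lower within RFP- cells. Plasmacytoid dendritic cell markers summed to 1251 CPM in BFP+RFP+, 1082 CPM in BFP-RFP+, 953 CPM in BFP+RFP- and 829 CPM in BFP-RFP- cells, an order opposite to that of Csf2rb. Of 8 of these markers compared, 0 were higher and 1 lower in BFP+ cells within RFP+ cells, and 2 were higher and 1 lower within RFP- cells. In RFP+ cells 2 were higher and 1 lower among BFP+ cells, and 3 were higher and 0 lower among BFP- cells. Langerhans cell markers, 4 compared, had 0 higher and 2 lower in BFP+ cells in each stratum. Of 6 cDC1 markers, 1 was higher and 3 lower in BFP+ cells within RFP+ cells, and 0 and 2 within RFP- cells. In RFP+ cells 2 of them were higher and 1 lower among BFP+ cells, and 3 and 0 among BFP- cells. Migratory dendritic cell markers, 16 compared, had 0 higher and 1 lower in BFP+ cells in each stratum. In RFP+ cells the Langerhans and migratory lists each had 1 higher and 1 lower among BFP+ cells, and 0 and 0 among BFP- cells. Of 10 neutrophil and mast cell markers 1 had enough UMIs, and Retnlg and Ms4a2 were at 0. The part of these cells in the receptor values was not tested, beyond the values without C1q, T cell-like and B cell-like barcodes.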

How the data were processed

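Raw UMI counts, deposited by the authors without normalisation, cover 22548 genes, 4 antibody tags and 4 hashtags in 6079 barcodes, all distinct. Per the file headers, Cell Ranger 7.0.0 made the matrix. GRCm39 (mm39) is the build per the submitters' processing notes. How cell barcodes were called is not given in the sources used here. The feature, barcode and antibody lists deposited by the authors were used for names alone, and 22404 feature IDs matched a table of gene names.

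The 5 receptors and all gene lists were chosen with earlier results of these data known. The receptors were named by their list; for likeness, the 5 genes with the highest correlation over groups of at least 30 cells were taken, among genes of 1000 or more UMIs and no more than 5% of these in the top 5 cells, on log2(CPM + 10).

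Hashtag and tag UMIs entered no mRNA total. Of 6079 barcodes, 377 failed the limits on UMIs or mitochondrial share and 679 failed the hashtag share. UMIs were summed per population. For log2 ratios 0.5 UMI was added to each sum. Intervals are exact at 95% (Poisson for levels, conditional binomial for ratios, Clopper-Pearson for shares) and cover counting error only; the floor for a count of 0 is 3 UMIs. On simulated counts the ratio interval was checked. Alternatives covered C1q and lymphocyte-like cells, hashtag calling by HTODemux at quantile 0.99 (Seurat 5.3.0), depth and mitochondrial limits, scaling by TMM (edgeR 4.0.16) and by size factors (DESeq2 1.42.0), pseudocount, cell weights and tag cuts. Promoter sequences and their coordinates are from RefSeq, build GRCm38.p6, which is not the build of the counts. Work was done in Python 3.11.15, scipy 1.17.1 and R 4.3.3.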

Additional observations from a re-analysis of the deposited data

Results flagged for a closer look

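In 4 cases populations had opposite directions for the same tag contrast, with intervals on opposite sides of 0. The differences between populations were not tested. Flt3 in the top over the bottom CD8a bin had a log2 ratio of 0.52 in BFP+RFP+ and -0.20 in BFP-RFP- cells. Flt3 by the CD301b tag had -0.14 in BFP+RFP+ and 0.20 in BFP-RFP+ cells. Csf2rb2 by the CD172a tag had 0.55 in BFP+RFP+, 0.24 in BFP+RFP- and -0.63 in BFP-RFP- cells. Csf2rb2 by the CD301b tag had 0.23 in BFP+RFP- and -0.32 in BFP-RFP- cells.

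Without T and B cell-like barcodes, Flt3 by the CD8a tag had 0.30 in BFP+RFP+ and -0.15 in BFP-RFP- cells. Csf2rb2 by the CD172a tag had 0.39 in BFP+RFP+, -0.10 in BFP+RFP- and -0.83 in BFP-RFP- cells. Csf2rb2 by the CD301b tag had 0.11 in BFP+RFP- and -0.52 in BFP-RFP- cells, and Flt3 by the CD301b tag had -0.18 in BFP+RFP+ and 0.12 in BFP-RFP+ cells.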

How the results depend on the processing

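No paired analysis was possible because all cells came from 1 capture, with 1 sample for each population. The RFP+ over RFP- log2 ratio stayed below 0 in all 17 alternatives for Csf2rb (-0.37 to -0.22 among BFP+ cells, -0.45 to -0.31 among BFP- cells) and Csf2rb2 (-0.45 to -0.25 and -0.56 to -0.35). Csf1r kept its direction between BFP+ and BFP- cells in all 17 alternatives but not its size. Within RFP+ cells its ratio of -1.64 became -0.51 without C1q cells, -0.44 also without T and B cell-like barcodes, -0.79 without cells of 2 or more C1q UMIs, -2.44 without the 10% deepest cells, -2.20 with equal weight per cell and -1.04 without the 5 cells with most Csf1r UMIs. Within bins of the CD8a, CD172a and CD301b tags it was -0.59, -0.64 and -0.75. In the top CD11b bin alone the direction was the other, at 15.1 CPM in BFP+RFP+ and 11.1 CPM in BFP-RFP+ cells, with an interval that includes 0. The CD11b bins below it held 1, 0 and 1 Csf1r UMIs in BFP+RFP+ cells against 2, 7 and 9 in BFP-RFP+ cells. Within RFP- cells the ratio of -1.99 became -0.63, -0.94 and -0.51 under the 3 removals of C1q or lymphocyte-like cells and -2.32 without the deepest cells. Within bins of the CD11b, CD8a, CD172a and CD301b tags it was -0.59, -0.33, -0.24 and -0.75. Between RFP+ and RFP- cells Csf1r had no stable direction. Its ratio of -0.10 among BFP+ cells became 0.43 without C1q, T and B cell-like cells, -0.66 with equal weight per cell, and -0.65 and -0.92 within CD11b and CD172a bins. The means within bins weigh near-empty bins like full ones. From low to high CD11b, BFP+RFP+ cells had 1, 0, 1 and 38 Csf1r UMIs against 4, 3, 8 and 75 in BFP+RFP- cells. In the top CD11b bin BFP+RFP+ cells were the higher, at 15.1 CPM held by 9 cells against 5.97 CPM held by 32 cells. Over the CD172a bins BFP+RFP+ cells had 1, 1, 1 and 37 UMIs. The Csf1r ratio of -0.46 among BFP- cells became 0.051 without C1q cells, -0.063 also without T and B cell-like barcodes, 0.13 without cells of 2 or more C1q UMIs, and 0.49 and 0.41 within CD11b and CD8a bins. The averages within bins were chosen after seeing the data.

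The number of receptors past 1.5-fold, 1 in each BFP comparison, became 0 within RFP+ cells without C1q cells, with or without T and B cell-like barcodes. Within RFP- cells it became 0 without cells of 2 or more C1q UMIs and within CD8a or CD172a bins. In the RFP comparisons it became 1 among BFP+ cells with equal weight per cell and within CD11b or CD172a bins, and 1 among BFP- cells without the 5 highest cells of each gene. Within the bins this was Csf1r, which had 0 or 1 UMI in all BFP+RFP+ bins but the top. Of all genes, the percent past 1.5-fold in the 4 comparisons was 19.1, 13.5, 16.7 and 15.9 for genes with at least 20 UMIs and 4.78, 2.33, 5.26 and 3.61 with at least 1000. The Csf1r ratio of the top over the bottom bin was 3.19 for CD11b with 2 bins, and with C1q cells 5.54 for CD11b and 4.78 for CD172a. The number of receptors past 1.5-fold became 2 with tag UMIs per hashtag UMI for CD11b, CD8a and CD172a, and 2 for CD11b with equal weight per cell. Of all alternative values of population ratios, 295 stayed inside the interval of the value reported and 45 did not. The causes were not tested. Depth limits Csf1r most, with 250 UMIs outside C1q cells, and without replicates no spread between mice can be given.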
